A study of Mus musculus with 16 samples.

Results

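The genes described here are 10 integrin subunits that muscle cells are known to carry: the alpha subunits Itga3, Itga4, Itga5, Itga6, Itga7, Itga11 and Itgav and the beta subunits Itgb1, Itgb3 and Itgb5. They were chosen by name, each matching 1 of the 31053 gene rows of the expression table, and all 10 were among the 10767 genes abundant enough to be tested. Integrins are cell surface receptors built from 1 alpha and 1 beta chain, which bind the extracellular matrix outside the cell and connect to the actin cytoskeleton inside it through adaptor proteins such as talin, kindlin and vinculin. The alpha chain largely sets the ligand, and Itgb1 is the shared partner of most alpha chains listed here, while Itgav can also pair with Itgb3 or Itgb5. In skeletal muscle the receptor of Itga7 and Itgb1 is the main laminin-binding integrin of the fibre and anchors it to the basement membrane. Receptors for fibronectin and laminin act in the migration, alignment and fusion of myoblasts.

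mRNA was sequenced in C2C12, a mouse myoblast line whose cells fuse into multinucleated myotubes. WT and Fam134bKO cells were sampled as undifferentiated myoblasts and as differentiated myotubes, with 4 biological replicates in each of the 4 groups. Fam134b (also Retreg1) encodes a receptor for the selective autophagy of the endoplasmic reticulum, and the comparisons ask how its loss bears on the transcriptome before and after differentiation. All 16 cultures were kept in DMEM with 10% FBS, and the methods describe differentiation without a change of growth medium. Fam134bKO cells had received Cas9 and guide RNAs against Fam134b by lentivirus and were drug-selected. The sources used here do not say whether they are 1 clone or a pool, nor whether the WT cells carried a control vector, so a difference between genotypes cannot be told apart from one between the 2 derived lines.

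The unit used below is the normalized count, the number of reads counted on a gene divided by a scaling factor of its sample. Reads on genes numbered 1484750 to 3287461 per sample, and the 2 shallowest samples were Fam134bKO myotubes replicates 2 and 4, with 1790524 and 1484750 reads. The targeted gene was lower in the Fam134bKO samples at both stages: its mean was 13.3% of the WT mean in myoblasts and 18.0% in myotubes, with no overlap between groups (exact two-sided permutation test of 4 against 4 samples, p = 0.0286 each, the smallest this design allows). The summed level of 7 myotube markers (Myog, Myh3, Ckm, Acta1, Tnnt3, Actn2 and Mymk, listed under its older symbol Tmem8c) lay between 710.3 and 1224 before and between 14010 and 20050 after differentiation of WT cells, and between 7.51 and 16.6 before and between 6876 and 9163 after differentiation of Fam134bKO cells. WT myoblasts thus already held Myog (92.1 to 149), whereas Myog was at 0 reads in each of the 4 Fam134bKO myoblast samples. The 5 myoblast markers (Pax7, Myf5, Myod1, Des and Cdh15) also had lower sums in Fam134bKO cells, 262 to 366 against 1002 to 1485 in WT myoblasts and 889 to 1192 against 2697 to 3231 in WT myotubes. Myod1, Des and Cdh15 were called lower in Fam134bKO cells at both stages and higher in myotubes of both genotypes, Myf5 was called only in Fam134bKO cells, where it was lower in myotubes, and Pax7 was at 0 in both Fam134bKO groups and at most 4.95 in WT samples. The part of these marker shifts in the results below was not tested. The sums over 5 fibroblast, 5 endothelial, 5 blood cell and 5 adipocyte markers stayed at or below 19.8 in every sample, and Ptprc, Cdh5 and Adipoq were at 0 throughout. These are bulk samples, so fewer cells of a kind and less RNA per cell cannot be told apart.

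Differentiation of WT cells went with higher levels of most of these integrins. Itga7, Itga6, Itgb1, Itga11, Itga4, Itga5 and Itgb5 were higher in WT myotubes than in WT myoblasts, which is 7 of 10, and 0 were lower. Itga4 was abundant enough to be tested only because of its WT myotube level, so its calls against that group are not independent of this choice. Of all genes tested, 13.8% were higher and 9.16% lower by the same criterion, a Benjamini-Hochberg adjusted p under 0.05 with limma. For the same 7 genes no WT myotube sample overlapped with a WT myoblast sample, against 28.0% of all genes. The median log2 fold change was 1.38 over the 10 integrins and -0.01 over all genes tested.

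The same stage comparison in Fam134bKO cells gave 6 genes higher and 0 lower: Itga7, Itgb1, Itga11, Itga6, Itgb5 and Itgav. The background was 17.3% higher and 16.1% lower, the medians were 1.23 for the integrins and -0.02 for all genes, and 5 of the integrins had groups that did not overlap (27.4% of all genes). Itga4 and Itga5 passed the test in WT cells but not in Fam134bKO cells. The difference between the 2 stage effects, tested as the interaction of genotype and differentiation, passed for 0 of the 10 integrins with limma (3.45% of all genes; 1 integrin, Itga7, had an unadjusted p under 0.05).

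Between genotypes 3 of the 10 integrins were called at each stage, in both directions, which for so few genes is not far from the shares of all genes. In myoblasts, Itgb5 and Itga11 were higher and Itga7 was lower in Fam134bKO than in WT cells, 2 and 1 of 10 beside 7.26% of all genes higher and 8.50% lower. In myotubes, Itgb5 was higher and Itga4 and Itga6 were lower in Fam134bKO cells, 1 and 2 of 10 beside 9.74% and 13.7%. Groups did not overlap for 3 integrins in myoblasts (26.8% of all genes) and 2 in myotubes (19.4%). The median over the 10 integrins was -0.04 in myoblasts and -0.32 in myotubes, and -0.01 and -0.07 over all genes. Itgb5 was the 1 integrin that differed between genotypes at both stages, and it was also higher in myotubes in both genotypes. The stage comparisons and the genotype comparisons share samples, so each is given with its own values.

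**Figure D1:**
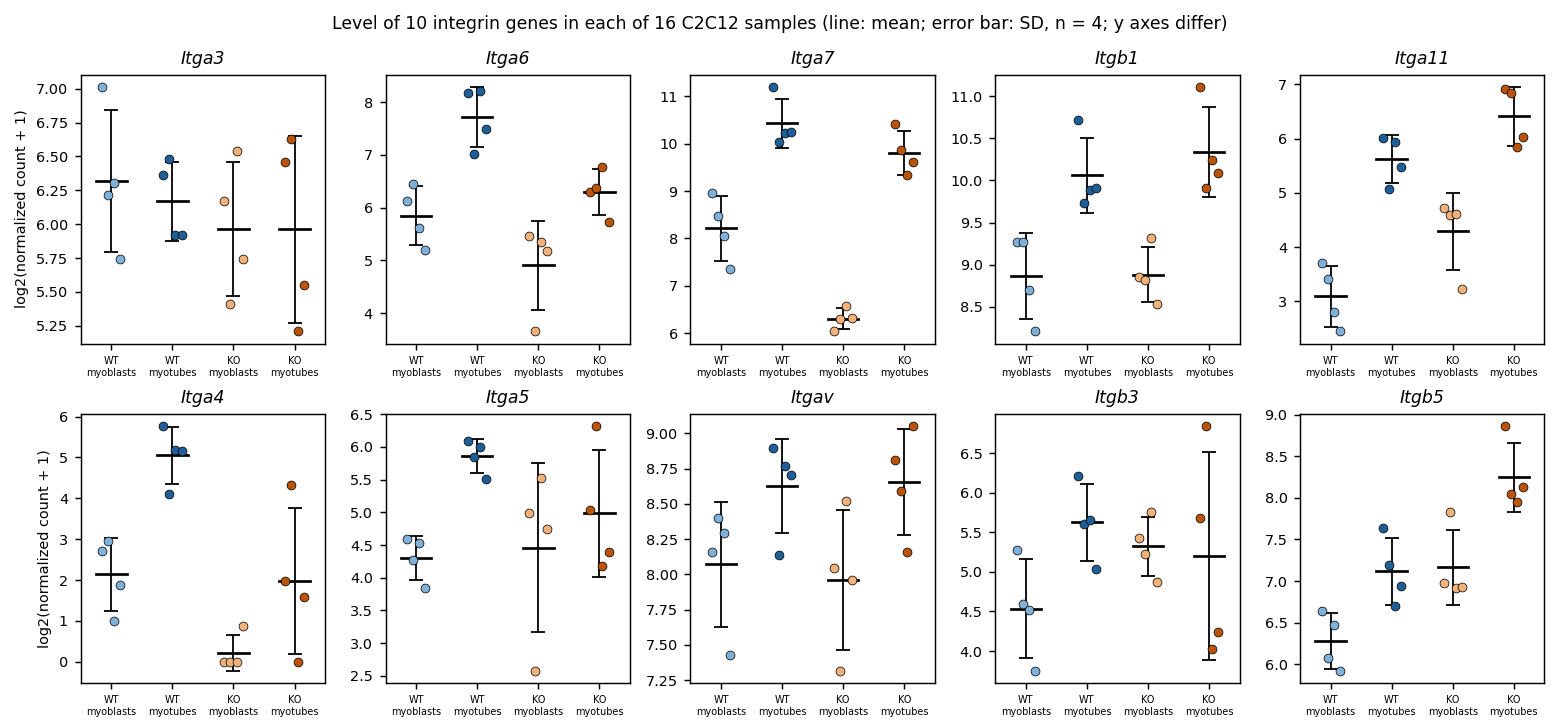
Level of each integrin gene in each of the 16 samples, as log2 of the normalized count plus 1 on the vertical axis, with a separate scale for each gene; the 4 groups are on the horizontal axis (KO stands for Fam134bKO), points are samples, horizontal lines are means and error bars are SD (n = 4). Itga7 ranged from 64.7 to 93.7 normalized counts in Fam134bKO myoblasts, below every WT myoblast sample (163 to 500.1), and Itga4 was at 0 in 3 of 4 Fam134bKO myoblast samples.

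The laminin receptors were Itga7, Itga6 and Itga3, with Itgb1 as their common partner. Itga7 (chr10:128933818-128958282, plus strand, GRCm38) had normalized counts of 500.1, 354.9, 265.2 and 163.1 in WT myoblasts and 2356, 1053, 1200 and 1215 in WT myotubes. In Fam134bKO cells the values were 64.7, 78.0, 93.7 and 79.3 in myoblasts and 1368, 927, 642 and 785 in myotubes. The order of the group means was therefore Fam134bKO myoblasts (78.9 ± 11.8, SD, n = 4), WT myoblasts (321 ± 143), Fam134bKO myotubes (931 ± 314) and WT myotubes (1456 ± 605), and the last 2 groups overlapped.

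The gene rose 4.64-fold with differentiation in WT cells (log2 fold change 2.22 ± 0.29, SE; adjusted p = 1.222e-05, limma) and 11.3-fold in Fam134bKO cells (3.5 ± 0.29; adjusted p = 9.514e-09). It was 3.75-fold lower in Fam134bKO than in WT myoblasts (log2 fold change -1.91 ± 0.29; adjusted p = 5.682e-05). In myotubes the log2 difference was -0.62 ± 0.29 and did not pass (adjusted p = 0.130). The interaction for Itga7 was 1.28 ± 0.41 on the log2 scale, with an adjusted p of 0.0987. It passed without WT myoblasts replicate 4 (adjusted p = 0.0281) and without WT myotubes replicate 1 (adjusted p = 0.0325). The myotube markers were called in the direction of the Itga7 value in all 4 comparisons: 7 of 7 were higher in myotubes in either genotype, 6 were lower in Fam134bKO myoblasts and 5 in Fam134bKO myotubes. For the interaction, 6 of the 7 markers were called higher and 1 lower (median log2 difference 4.16). The part of these markers in the Itga7 result was not tested.

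Itga6 (chr2:71745616-71858416, plus strand), the alpha chain of a laminin receptor of many epithelia and of muscle precursors, had values of 69.2, 86.8, 48.0 and 35.6 in WT myoblasts and of 286, 128, 294 and 179 in WT myotubes. In Fam134bKO cells it had 42.9, 11.6, 39.9 and 35.0 in myoblasts and 77.5, 81.7, 109 and 52.0 in myotubes. Every WT myotube sample was thus above every sample of the other 3 groups. Itga6 was 3.65-fold higher in myotubes in WT cells (log2 fold change 1.87 ± 0.37, SE; adjusted p = 9.588e-04, limma) and 2.61-fold higher in Fam134bKO cells (1.38 ± 0.37; adjusted p = 0.00633). Fam134bKO myotubes were 2.68-fold below WT myotubes (log2 fold change -1.42 ± 0.37; adjusted p = 0.00758), and the log2 difference of -0.94 between myoblasts did not pass (adjusted p = 0.0920). Without both shallow Fam134bKO myotube samples, a choice made after the data had been seen, the myotube difference was -1.18 with an adjusted p of 0.0591. With no filter on low counts, both the Fam134bKO stage call and the myotube genotype call of Itga6 were lost (adjusted p = 0.0691 and 0.0772).

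Itga3 (chr11:95044474-95076801, minus strand), the alpha chain of another laminin receptor, showed no called change. Its group means lay between 64.2 ± 22.1 (SD, n = 4) in Fam134bKO myoblasts and 83.1 ± 32.1 in WT myoblasts, and the ranges of the 4 groups overlapped, from 36.0 at the lowest to 128 at the highest. The log2 fold changes were -0.15 ± 0.32 with differentiation in WT cells, -0.002 ± 0.32 in Fam134bKO cells, -0.35 ± 0.32 between genotypes in myoblasts and -0.21 ± 0.32 in myotubes (SE).

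Itgb1 (chr8:128685654-128733200, plus strand), the common beta chain, had values of 617, 615, 416 and 295 in WT myoblasts and of 1678, 850.1, 945 and 961 in WT myotubes. Fam134bKO cells had 463, 452, 637 and 369 in myoblasts and 2211, 962, 1211 and 1083 in myotubes. All myotube samples were above all myoblast samples, whatever the genotype. The gene rose 2.29-fold in WT cells (log2 fold change 1.20 ± 0.27, SE; adjusted p = 0.00329, limma) and 2.74-fold in Fam134bKO cells (1.46 ± 0.27; adjusted p = 3.215e-04). Between genotypes the log2 differences were 0.02 ± 0.27 in myoblasts and 0.28 ± 0.27 in myotubes, and neither passed. Thus where its laminin-binding partners Itga7 and Itga6 were lower in Fam134bKO cells at 1 stage each, the mean of Itgb1 itself was 480 ± 113 against 486 ± 158 in myoblasts and 1367 ± 572 against 1108 ± 383 in myotubes.

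Itga11 (chr9:62677826-62783982, plus strand) encodes the alpha chain of a receptor for fibrillar collagen, again with Itgb1, and is best known from fibroblasts. It was low in WT myoblasts, with 12, 9.64, 6.0 and 4.46 (5 to 13 reads), and higher in WT myotubes, with 63.0, 32.4, 60.4 and 43.6. Fam134bKO myoblasts had 25.4, 23.2, 23.4 and 8.34, and Fam134bKO myotubes 119, 114, 56.7 and 63.9. The group means therefore rose in the order WT myoblasts (8.03 ± 3.43, SD, n = 4), Fam134bKO myoblasts (20.1 ± 7.89), WT myotubes (49.9 ± 14.5) and Fam134bKO myotubes (88.4 ± 32.6), with overlap between the first 2 and between the last 2.

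The change with differentiation was 5.77-fold in WT cells (log2 fold change 2.53 ± 0.37, SE; adjusted p = 5.233e-05, limma) and 4.34-fold in Fam134bKO cells (2.12 ± 0.37; adjusted p = 1.779e-04). Itga11 was 2.29-fold higher in Fam134bKO than in WT myoblasts (log2 fold change 1.20 ± 0.37; adjusted p = 0.0316). This call was lost without WT myoblasts replicate 3 (adjusted p = 0.0897) or replicate 4 (0.117), and without Fam134bKO myoblasts replicate 1 (0.106), 2 (0.0804) or 3 (0.0950), and with voom on the recovered reads (0.121). In myotubes the log2 difference of 0.79 ± 0.37 did not pass (adjusted p = 0.136). The 5 fibroblast markers, among them Pdgfra, had summed levels of 4.00 to 6.46 (WT myoblasts), 5.4 to 11.2 (WT myotubes), 3.34 to 16.5 (Fam134bKO myoblasts) and 7.99 to 19.8 (Fam134bKO myotubes). Col15a1 was at 0 in every sample, and the part of such cells in the Itga11 result was not tested.

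Itga4 and Itga5 bind fibronectin with Itgb1, and Itga4 also binds Vcam1, a contact used between myoblasts. Itga4 (chr2:79255426-79333123, plus strand) had 5.54, 6.75, 1.00 and 2.67 in WT myoblasts, which is 1 to 7 reads per sample, and 53.5, 16.2, 35.3 and 34.7 in WT myotubes (18 to 62 reads). In Fam134bKO myoblasts it was at 0, 0, 0 and 0.834, a single read in 4 samples. The 4 Fam134bKO myotube samples had 2.90, 19.0, 0 and 2.0, so that replicate 2 held 13 of the 17 reads of that group.

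Itga4 rose in WT cells (log2 fold change 2.92 ± 0.70, SE; adjusted p = 0.00477, limma), and the reads summed over each group gave a ratio of 8.77 (exact binomial 95% interval 5.30 to 15.4, counting error only). Itga4 reached the normalized count of 10 needed in 4 samples only in the 4 WT myotube samples and in Fam134bKO myotubes replicate 2. It was thus tested only because of the group where it was highest, and its calls are against that group. With no filter on low counts the WT stage call was lost (adjusted p = 0.0535, limma). It was lower in Fam134bKO than in WT myotubes (log2 fold change -3.09 ± 0.70; adjusted p = 0.00282), with a ratio of reads of 0.145 (0.0825 to 0.240). This difference was -3.87 without Fam134bKO myotubes replicate 2, -2.43 without replicate 3 and -4.07 without both shallow samples. The log2 fold change of 1.75 with differentiation in Fam134bKO cells missed the threshold (adjusted p = 0.0584), and was 2.40 without Fam134bKO myotubes replicate 3 (adjusted p = 0.00793). There the ratio of 17 reads to 1 read was 24, with an interval from 3.76 to 1003. In myoblasts both genotypes were close to the floor of 3 reads per sample, and the log2 difference of -1.92 did not pass (adjusted p = 0.0682), although the groups did not overlap. It passed without WT myoblasts replicate 3 (adjusted p = 0.0465), without Fam134bKO myotubes replicate 2 (0.0166) or replicate 3 (0.0342), and without both shallow samples (0.0128). The Fam134bKO myotube samples enter this difference only through the shared estimate of the spread. It also passed with the 8 compared samples alone (0.00846, limma), with sample weights (0.00561) and with a pseudocount of 0.5 (0.0454). In 20 of 27 alternative settings it did not pass. At such counts the fitted fold changes also depend on the pseudocount of the log scale.

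Itga5 (chr15:103344286-103366763, minus strand), the alpha chain of the main fibronectin receptor, had 23.1, 18.3, 22 and 13.4 in WT myoblasts and 67.3, 56.7, 63.2 and 44.6 in WT myotubes. The Fam134bKO samples were more scattered, with 30.6, 4.98, 45.1 and 25.9 in myoblasts and 31.9, 78.8, 17.1 and 20 in myotubes. The 2 stages overlapped in Fam134bKO cells and not in WT cells. Itga5 was 2.94-fold higher in WT myotubes than in WT myoblasts (log2 fold change 1.56 ± 0.49, SE; adjusted p = 0.0273, limma). The call was lost without WT myoblasts replicate 2 (adjusted p = 0.0541) or 4 (0.0843) and without WT myotubes replicate 1 (0.0755) or 3 (0.0631). In Fam134bKO cells the log2 fold change was 0.52 ± 0.49 (adjusted p = 0.438). Between genotypes it was 0.15 ± 0.49 in myoblasts and -0.88 ± 0.49 in myotubes (adjusted p = 0.208), and the myotube difference passed without Fam134bKO myotubes replicate 2 (-1.33; adjusted p = 0.0429).

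The receptors of Itgav recognize the RGD motif of fibronectin, vitronectin and related proteins. Itgav itself (chr2:83724397-83806916, plus strand) had 285, 338, 312 and 171 in WT myoblasts, 475, 281, 436 and 416 in WT myotubes, 263, 159, 367 and 249 in Fam134bKO myoblasts and 448, 385, 285 and 530 in Fam134bKO myotubes. Both stage comparisons had overlapping groups. The log2 fold change with differentiation was 0.56 ± 0.25 (SE) in WT cells (adjusted p = 0.119, limma) and 0.69 ± 0.25 in Fam134bKO cells (adjusted p = 0.0401). The WT value passed without WT myotubes replicate 2 (0.72; adjusted p = 0.0474). The Fam134bKO call was lost without replicate 1, 2 or 4 of either Fam134bKO group (adjusted p of 0.0523 to 0.147), without both shallow samples (0.197) and when samples were scaled to equal totals (0.0681). The genotype differences were -0.11 ± 0.25 in myoblasts and 0.03 ± 0.25 in myotubes.

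Itgb5 (chr16:33829665-33949338, plus strand), which pairs with Itgav in a vitronectin receptor, had 98.7, 66.5, 88.1 and 59.7 in WT myoblasts and 199, 145, 103 and 122 in WT myotubes. In Fam134bKO cells it had 125, 227, 120 and 121 in myoblasts and 465, 263, 246 and 280 in myotubes. Each Fam134bKO group lay wholly above the WT group of its stage. Fam134bKO myoblasts (148 ± 52.4, SD, n = 4) and WT myotubes (142 ± 41.3) had almost the same mean.

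Itgb5 was 1.79-fold higher in WT myotubes than in WT myoblasts (log2 fold change 0.84 ± 0.25, SE; adjusted p = 0.0210, limma), and 2.12-fold higher with differentiation in Fam134bKO cells (1.08 ± 0.25; adjusted p = 0.00245). The genotype difference was 1.85-fold in myoblasts (0.88 ± 0.25; adjusted p = 0.0192) and 2.19-fold in myotubes (1.13 ± 0.25; adjusted p = 0.00266). The WT stage call was lost without WT myoblasts replicate 2 (adjusted p = 0.0575) or 4 (0.0793) or WT myotubes replicate 1 (0.0932). Likewise, the myoblast genotype call was lost without WT myoblasts replicate 2 (0.0585) or 4 (0.0731) or Fam134bKO myoblasts replicate 2 (0.0787). Leaving out any 1 sample did not end the call in Fam134bKO stages or between myotubes, where the log2 fold change stayed between 0.88 and 1.30 and between 0.92 and 1.30.

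Itgb3 (chr11:104608000-104670476, plus strand), the other beta partner of Itgav, had 37.8, 23.1, 22 and 12.5 in WT myoblasts, 73.4, 47.7, 49.3 and 31.7 in WT myotubes, 42.0, 36.5, 52.9 and 28.4 in Fam134bKO myoblasts and 50.3, 114, 15.3 and 18.0 in Fam134bKO myotubes. The last group ranged widely, with replicate 2 far above the rest. The log2 fold change with differentiation was 1.09 ± 0.47 (SE) in WT cells (adjusted p = 0.0975, limma) and -0.12 ± 0.47 in Fam134bKO cells (adjusted p = 0.867). The WT value passed, unchanged in size, without Fam134bKO myotubes replicate 2 (adjusted p = 0.0318), a sample that enters it only through the shared estimate of the spread. Between genotypes it was 0.78 ± 0.47 in myoblasts (adjusted p = 0.298) and -0.43 ± 0.47 in myotubes (adjusted p = 0.551).

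**Figure D2:**
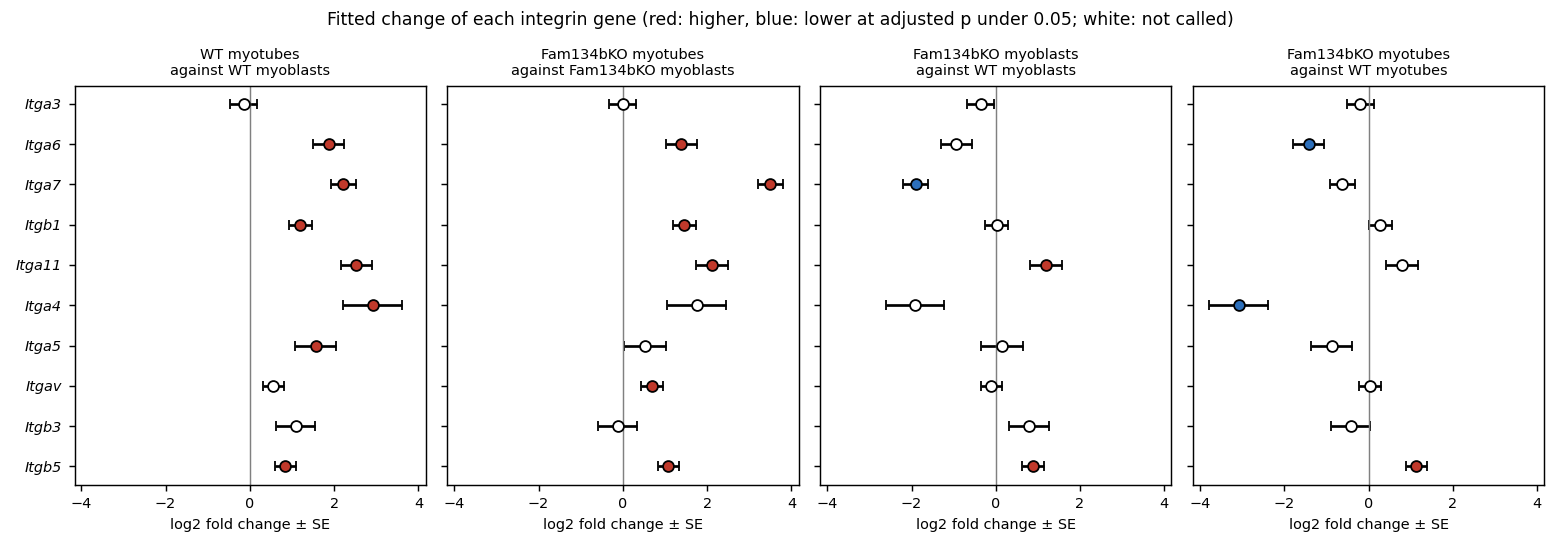
Fitted log2 fold change of each of the 10 integrin genes (horizontal axis, error bars: SE) in the 4 comparisons, with 4 samples per group; filled points were called at an adjusted p under 0.05 (red higher, blue lower) and white points were not. Both stage panels have only higher calls (7 and 6 genes), whereas the genotype panels have calls on both sides, with Itgb5 higher in both.

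The sequence just before the transcription start was taken for the members that change most or in most comparisons, since E-boxes (CANNTG) are the sites read by the myogenic factors MyoD and myogenin. RefSeq promoter entries on GRCm38.p6 were matched for 7 of the 10 genes, with 8 entries since Itga3 has more than 1 start; Itga6, Itga7 and Itgb3 had none. An E-box was found in the 250 bases before the start in 5 of the 7 genes, and in 66.2% of all 32851 promoter entries, so holding one is common. CANNTG reads the same on both strands. The sequences below run 5′ to 3′ on the strand of the gene, with E-boxes in capitals. They are Itga11 and Itga4, which had the largest fitted rises in WT cells, Itgb5, which was called in all 4 comparisons, and Itgb1, which rose in both genotypes.
Itga11, chr9:62677605-62677854, plus strand: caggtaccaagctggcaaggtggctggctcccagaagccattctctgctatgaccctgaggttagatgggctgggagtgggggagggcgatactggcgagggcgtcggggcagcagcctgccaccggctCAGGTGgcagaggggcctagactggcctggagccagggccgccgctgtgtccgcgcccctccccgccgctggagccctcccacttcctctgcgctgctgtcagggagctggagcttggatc
Itga4, chr2:79255176-79255425, plus strand: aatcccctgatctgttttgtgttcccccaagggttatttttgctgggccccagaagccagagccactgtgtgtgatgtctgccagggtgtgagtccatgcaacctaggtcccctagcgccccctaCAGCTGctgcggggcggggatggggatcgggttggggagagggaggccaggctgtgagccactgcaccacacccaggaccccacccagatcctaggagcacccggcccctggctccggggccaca
Itgb5, chr16:33829415-33829664, plus strand: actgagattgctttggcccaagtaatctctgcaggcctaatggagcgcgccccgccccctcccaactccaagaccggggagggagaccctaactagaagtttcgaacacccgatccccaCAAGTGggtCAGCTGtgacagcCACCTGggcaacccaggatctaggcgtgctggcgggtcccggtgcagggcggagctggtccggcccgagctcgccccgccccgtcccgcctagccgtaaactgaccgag
Itgb1, chr8:128685404-128685653, plus strand: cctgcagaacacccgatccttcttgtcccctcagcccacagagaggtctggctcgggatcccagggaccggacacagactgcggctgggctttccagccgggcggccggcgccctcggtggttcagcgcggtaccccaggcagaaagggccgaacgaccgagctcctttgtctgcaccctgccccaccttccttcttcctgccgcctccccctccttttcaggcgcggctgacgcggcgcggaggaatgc

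The window of Itgb5 held 3 E-boxes that do not overlap each other. The windows of Itga11 and Itga4 held 1 each, and that of Itgb1 held 0. The Itgav window also held 0, and those of Itga5 and of both Itga3 starts held 1 each. GC boxes (GGGCGG on either strand), a common element of promoters without a TATA box, were found in 5 of the 7 genes and in 32.7% of all entries: 3 matches for Itgb5, 1 each for Itga4 and Itgb1 and 0 for Itga11. The MEF2 pattern CTANNNNTAG was in 0 of the 8 entries and in 3.2% of all. Such matches are a description of the letters in these windows and are not evidence of binding.

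Strand use in counting is not given in the sources used here, and in the GENCODE M21 annotation the exons of 3 members share bases with a gene on the opposite strand. Itga4 shares 1124 of its 13978 exonic bases with Cerkl, Itgav shares 634 of 10744 with Gm13684 and Itga7 shares 9 of 8092 with Mettl7b. Cerkl was at 0 in all samples and Mettl7b was at most 0.90, so that at most 1 read of a sample was assigned to either partner. No level was obtained for Gm13684. These levels do not show whether reads on the shared bases were left uncounted. No exon of the other 7 genes overlapped another annotated gene.

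Levels of the members also varied together among replicates. In WT myoblasts all 10 integrins were above their group mean in replicate 1 (median log2 deviation 0.49) and all 10 were below it in replicate 4 (-0.64). In WT myotubes all 10 were above it in replicate 1 (0.49). Among Fam134bKO myotubes, 9 were above in replicate 1 (0.49) while 1 was above in replicate 3 (-0.52) and in replicate 4 (-0.38). Of the 7 myotube markers only Ckm is given by replicate here, picked after its values had been seen, so the markers as a set are not described. Ckm had its highest value of the group, 97.8, in WT myoblasts replicate 1 and its lowest, 33.0, in replicate 4, as had Itga7. The part of the shared variation among replicates in the results was not tested.

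**Figure D3:**
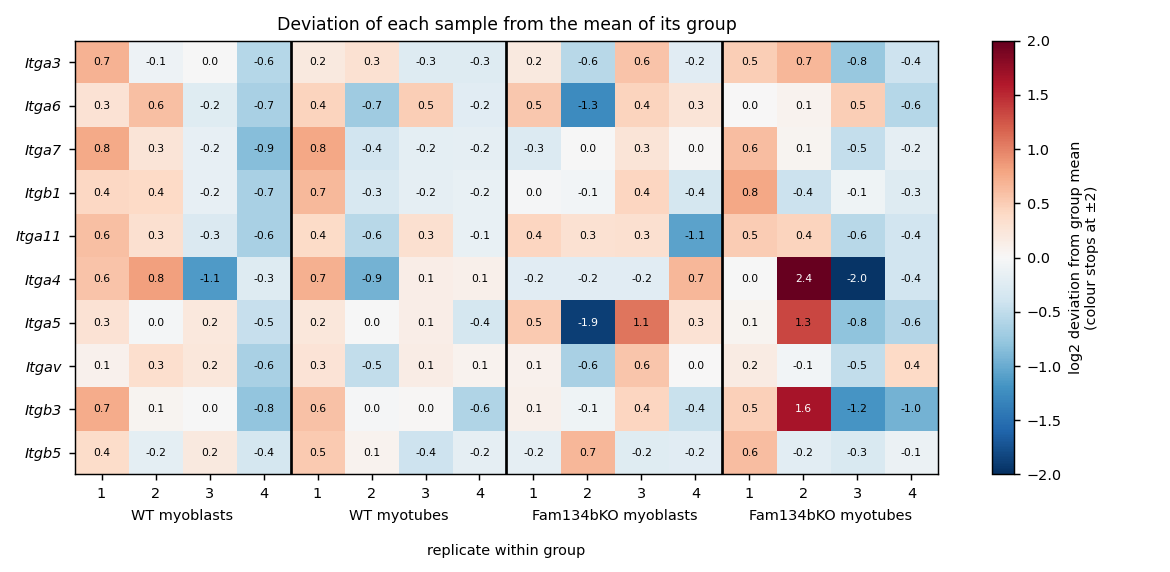
Deviation of each sample from the mean of its own group on the log2 scale, for the 10 integrin genes (vertical axis) in the 16 samples (horizontal axis, replicates 1 to 4 of each group, groups separated by black lines); red is above and blue below the group mean, and the colour scale stops at ±2. WT myoblasts replicate 4 is below the mean for all 10 genes, and the strongest single deviations are in Itga4 of Fam134bKO myotubes replicates 2 and 3, Itgb3 of Fam134bKO myotubes replicate 2 and Itga5 of Fam134bKO myoblasts replicate 2.

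As a description, genes were correlated over the 16 samples, which differ in library depth and in group. The members most alike were Itgb1 and Itga11 (Pearson r = 0.876), Itga6 and Itga7 (0.836) and Itga7 and Itgb1 (0.83). After the group means had been taken out, r was 0.654, 0.374 and 0.852 in the same order. Among all genes tested, the 3 most like Itga7 were Myh4, a fast myosin heavy chain (r = 0.985), Sdc1, a heparan sulfate proteoglycan (0.982), and Myom2, an M-band protein of the sarcomere (0.980), and 195 genes had r over 0.9. Itgb1 was most like Elovl5 (0.972), the tetraspanin Cd81 (0.967) and Laptm4a (0.962). Itga11 was most like the syndecan Sdc2 (0.970), Nbr1 (0.965) and the matrix protein Matn2 (0.953), and Itgb5 was most like Cyp20a1 and Arhgef25 (0.960 each) and Pdia5 (0.942). For Itga4 they were Cd36 (0.941), Gatm (0.931) and Ctsc (0.926), and for Itga6 Atp13a3 (0.938), Serinc2 (0.931) and Slco3a1 (0.926). For Itga5 they were Lmf1 (0.943) and the mitochondrial genes COX2 (0.928) and COX3 (0.916), and for Itgav the chaperone Canx (0.943), Hsd17b11 (0.934) and Tmx2 (0.913).

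Other integrin subunits were mostly too low to test. Of 11 further alpha subunits 2 were tested, Itga2b and Itga10, and of 5 further beta subunits 2, Itgb4 and Itgb8. Between WT stages 0 of these 2 alpha and 0 of these 2 beta subunits were called. Itga10, the alpha chain of another collagen receptor, had 30.4, 9.64, 18.0 and 15.1 in WT myoblasts, 27.6, 27, 28.8 and 27.7 in WT myotubes, 0.875, 3.32, 5.21 and 8.34 in Fam134bKO myoblasts and 57.1, 87.6, 29.7 and 34.0 in Fam134bKO myotubes. It was lower in Fam134bKO than in WT myoblasts (log2 fold change -1.94 ± 0.44, SE; adjusted p = 0.0035, limma) and higher in Fam134bKO myotubes than in Fam134bKO myoblasts (3.38 ± 0.44; adjusted p = 5.41e-06). Itga2b, the alpha chain of the platelet fibrinogen receptor, was higher in Fam134bKO than in WT myoblasts (1.92 ± 0.40; adjusted p = 0.00146), with means of 34.4 and 8.23. Itgb4 was higher in Fam134bKO than in WT myotubes (1.52 ± 0.54; adjusted p = 0.0466), with means of 10.4 and 3.24 and overlapping groups, and Itgb8 was not called in any comparison.

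Many extracellular ligands of these receptors rose with differentiation. For this and the following lists, the shares of all genes tested were 13.8% higher and 9.16% lower in WT stages and 17.3% and 16.1% in Fam134bKO stages. Between genotypes they were 7.26% higher and 8.50% lower in Fam134bKO myoblasts and 9.74% and 13.7% in Fam134bKO myotubes. Of 13 tested laminin chains and basement membrane ligands, 8 were higher and 0 lower in WT myotubes (median log2 fold change 1.42), and 9 were higher and 0 lower in Fam134bKO myotubes (1.96) than in the myoblasts of the same genotype. Lama1 was called with 0 to 1 read per sample in WT myoblasts and normalized counts of 10.2 to 28.5 in WT myotubes (adjusted p = 3.65e-05, limma). Npnt, or nephronectin, rose by 2.06 ± 0.24 in WT cells (log2, SE; adjusted p = 2.42e-06). Lama2, the alpha chain of the laminin of muscle basement membrane, rose by 1.94 ± 0.38 in WT cells (adjusted p = 8.28e-04). Fam134bKO myoblasts held 1 to 2 reads of Lama2 per sample, against normalized counts of 10.7 to 36.0 in WT myoblasts (adjusted p = 2.92e-06) and 16 to 29.0 in Fam134bKO myotubes (8e-07), and in myotubes the genotype difference was -1.70 ± 0.38 (0.00225). In all, 4 of the 13 were lower and 0 higher in Fam134bKO myoblasts (median -0.40), Lama2, Lamb3, Npnt and Lamb1, and in myotubes 3 were lower and 2 higher (-0.52).

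Of 14 tested ligands with an RGD or other non-laminin site, 7 were higher and 0 lower in WT myotubes than in WT myoblasts (median 0.60), and 9 were higher and 1 lower in Fam134bKO cells (1.09). Fn1, or fibronectin, the ligand of Itga5 and Itga4, rose by 1.85 ± 0.34 in WT and 2.42 ± 0.34 in Fam134bKO cells (log2, SE; adjusted p = 5.49e-04 and 1.4e-05, limma). Fbn1, or fibrillin-1, rose by 2.54 ± 0.26 in WT cells (adjusted p = 4.37e-07). The gene that fell in Fam134bKO cells was Ctgf (-2.90 ± 0.59; adjusted p = 6.87e-04), a matricellular growth regulator. Between genotypes, 4 were lower and 0 higher in Fam134bKO myoblasts (median -0.24), among them Edil3 (-2.55 ± 0.58; adjusted p = 0.00324) and Adam12 (-1.40 ± 0.23; adjusted p = 9.61e-05). In myotubes 4 were higher and 3 lower (0.01).

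Fibrillar collagens, the ligands of Itga11, were higher for 5 of 6 tested genes in WT myotubes (median 1.42) and for 3 of 6 in Fam134bKO myotubes (1.15), with 0 lower in either. Col3a1 rose by 2.50 ± 0.35 in WT and 2.45 ± 0.35 in Fam134bKO cells (log2, SE; adjusted p = 2.62e-05 and 1.5e-05, limma). In Fam134bKO myoblasts 3 were higher than in WT myoblasts and 1 was lower (median 0.86). Col1a2 was higher (1.57 ± 0.30; adjusted p = 6.43e-04) and Col11a1 lower (-1.84 ± 0.55; adjusted p = 0.0243). In myotubes 2 were higher and 1, again Col11a1 (-1.75 ± 0.55; adjusted p = 0.0248), was lower (median 0.48).

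Proteins that sit beside integrins in the membrane, such as tetraspanins and syndecans, were higher in myotubes for 11 of 17 tested genes in WT cells (median 0.79), with 0 lower, and for 11 in Fam134bKO cells (0.84), with 2 lower. Cd82, a tetraspanin, rose by 1.99 ± 0.34 in WT cells (log2, SE; adjusted p = 2.31e-04, limma), and Sdc2 by 1.56 ± 0.23 (adjusted p = 5.41e-05). Slc3a2, the heavy chain of an amino acid transporter that binds beta chains of integrins, rose by 1.60 ± 0.23 in WT cells (adjusted p = 4.58e-05). Cav1, or caveolin-1, was higher in Fam134bKO cells at both stages (1.58 ± 0.17 in myoblasts and 1.82 ± 0.17 in myotubes; adjusted p = 4.32e-07 and 2.68e-07). In Fam134bKO against WT cells 3 genes of the list were higher and 3 lower in myoblasts (median -0.18) and 3 and 2 in myotubes (0.12).

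On the intracellular side, of 21 tested activators and actin linkers, 4 were higher and 2 lower in WT myotubes (median 0.04) and 2 higher and 4 lower in Fam134bKO myotubes (-0.02). Of all genes, 13.8% were higher and 9.16% lower in WT myotubes and 17.3% and 16.1% in Fam134bKO myotubes. Flnc, the muscle filamin, was higher in both (2.20 ± 0.29 and 1.5 ± 0.29 on the log2 scale, SE; adjusted p = 1.33e-05 and 4.61e-04, limma). Between genotypes 3 were higher and 2 lower in myoblasts (-0.003) and 2 and 1 in myotubes (-0.11). Apbb1ip, an adaptor that links Rap1 to talin, was higher in Fam134bKO cells at both stages (1.54 ± 0.26 and 1.89 ± 0.26; adjusted p = 1.36e-04 and 2e-05).

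Among 21 tested adhesion kinases and scaffolds, 1 was higher and 2 lower in WT myotubes (median -0.10) and 4 were higher and 2 lower in Fam134bKO myotubes (0.03). Ptk2b, a kinase related to focal adhesion kinase, was lower in Fam134bKO than in WT myoblasts (-3.39 ± 0.39, log2 and SE; adjusted p = 1.01e-06, limma) and myotubes (-1.43 ± 0.39; adjusted p = 0.0101). In all, 0 were higher and 2 lower in Fam134bKO myoblasts (-0.21), and 1 was higher and 4 lower in myotubes (-0.05). Pxn, or paxillin, a scaffold of focal adhesions, was lower at both stages (-0.58 ± 0.18 and -0.72 ± 0.18; adjusted p = 0.0315 and 0.00604).

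Of 10 tested inhibitors and cytoplasmic partners, 2 were higher and 0 lower in WT myotubes (median -0.30), and 2 were higher and 3 lower in Fam134bKO myotubes (-0.14). Itgb1bp2, or melusin, a muscle protein that binds the tail of Itgb1, had 9.23, 7.72, 7.01 and 7.13 in WT myoblasts and 259, 183, 308 and 190 in WT myotubes. In Fam134bKO cells it had 1.75, 0, 2.6 and 0 in myoblasts and 112, 118, 148 and 110 in myotubes. The log2 fold change with differentiation was 4.72 ± 0.36 (SE) in WT cells (adjusted p = 5.01e-09, limma), while in Fam134bKO cells the myoblast samples were at or under the floor of 3 reads. Between genotypes 1 of the 10 was higher and 2 were lower in myoblasts (-0.24), and 1 and 1 in myotubes (-0.05).

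**Figure D4:**
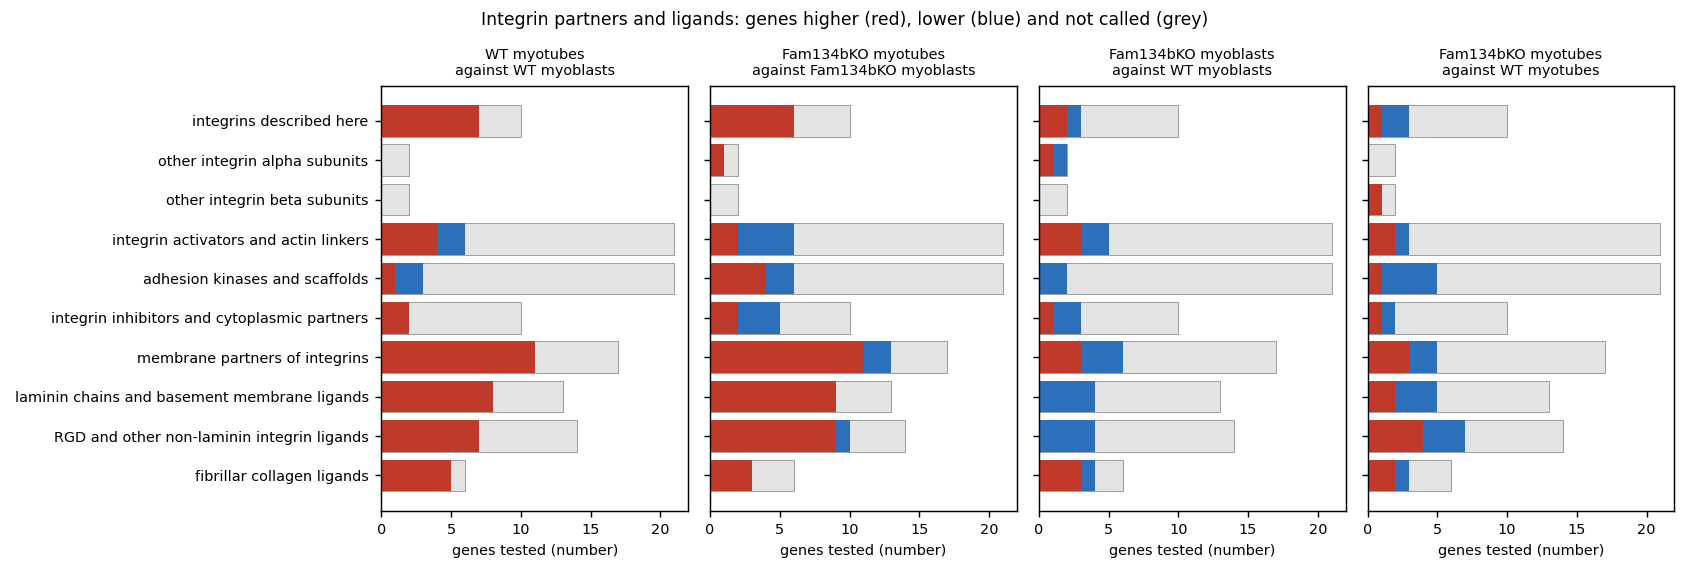
Number of genes tested in each list (horizontal axis) for the 10 integrins and 9 lists of further integrin subunits, partners and ligands (vertical axis) in the 4 comparisons; red marks genes higher, blue genes lower at an adjusted p under 0.05 and grey genes not called. Laminin and basement membrane ligands are 8 and 9 of 13 higher in the stage comparisons and 0 of 13 higher in Fam134bKO against WT myoblasts.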

How the data were processed

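mRNA of 16 C2C12 samples, assigned to groups from their titles, was sequenced as single-end reads, trimmed with bbduk, aligned with STAR 2.6.0a to mm10 (build and aligner per the submitters' processing notes; mm10 is GRCm38) and counted per gene with HTSeq. What the authors deposited is on a log2 scale, as log2 of the scaled gene count plus 1. When this was reversed, 100% of values above 0 were whole multiples of 1 step per sample (tolerance 0.01 read), which gave the reads. Planning had allowed for a linear scale, which would have needed a log step, and none was added since the values were already log2.

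The test was run on 10767 of 31053 genes, those reaching a normalized count of 10 in 4 or more samples, with limma 3.58.1 under R 4.3.3 (lmFit and eBayes with a trend, 1 model of 4 group means, Benjamini-Hochberg adjustment over all genes tested, threshold 0.05). It was first checked on simulated data. Fold changes are on the log2(normalized count + 1) scale, which understates changes of low genes. The floor of 3 reads corresponds to a normalized count of 2.49 to 5.99; floors and intervals cover counting error only. The members and gene lists were chosen with earlier results of these data known. Named genes were the 10 members, Fam134b, in each list and comparison up to 4 called genes with the largest change and no overlap between groups, and the 3 genes most correlated with each called member; Itgb4, Itgb8, the cell type markers and the overlapping genes were added after their values had been seen. Alternatives were other filters, pseudocounts, scalings, sample weights, thresholds, voom on the recovered reads, a replicate block, the 8 samples compared alone, and samples left out.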

Additional observations from a re-analysis of the deposited data

Results flagged for a closer look

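In 7 of the 40 combinations of an integrin and a group, 1 of the 4 samples lay far from the other 3 by Dixon's 95% criterion on the normalized counts. For normally distributed values chance alone meets it in about 1 of 20 groups. Counts on this linear scale need not be so distributed, and the integrins varied together among replicates, so the 7 cannot be set against that rate. A single read beside samples at 0 meets the criterion whatever its size. They were Itga7 and Itgb1 in WT myotubes replicate 1 (2356 against 1053 to 1215, and 1678 against 850.1 to 961), Itgb5 in Fam134bKO myotubes replicate 1 (465 against 246 to 280) and in Fam134bKO myoblasts replicate 2 (227 against 120 to 125), Itga4 in Fam134bKO myotubes replicate 2 (19.0 against 0 to 2.90), Itga4 in Fam134bKO myoblasts replicate 4 (0.834, a single read, against 0) and Itga11 in Fam134bKO myoblasts replicate 4 (8.34, the lowest, against 23.2 to 25.4).

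By limma's interaction term, the stage effect differed between genotypes for 5 further subunits, partners or ligands, and was larger in Fam134bKO cells in each. These were 1 of 2 tested alpha subunits and 1 of 21 adhesion kinases and scaffolds. The rest were 1 of 17 membrane partners and 2 of 13 laminin and basement membrane ligands. The other lists of subunits, partners and ligands had no such call. Of all genes tested 3.45% were called, and of the 7 myotube markers 6 were called higher and 1 lower. The log2 difference was 2.70 for Itga10 (adjusted p = 0.0173), 1.96 for Ptk2b (0.0497), 1.29 for Cd63 (0.0198), 1.59 for Lamb1 (0.0163) and 2.13 for Lamb3 (0.0157). In all 5, the Fam134bKO myoblasts had the lowest group mean.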

How the results depend on the processing

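Over 28 alternative settings, 1385 log2 fold changes of single integrins were recomputed: 1292 kept their direction and their side of the threshold, 37 lost and 20 gained a call, and 36 turned sign, of which 0 had been called. Itga7, Itga6, Itgb1 and Itga11 in WT stages, and Itga7, Itgb1, Itgb5 and Itga11 in Fam134bKO stages, passed under each of these settings in which they were tested, as did Itga7 between myoblasts and Itga4 and Itgb5 between myotubes.

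With no filter on low counts, 4 rather than 7 integrins were called between WT stages and 1 rather than 3 between genotypes in myoblasts. The calls lost there were Itga4, Itga5 and Itgb5 (WT stages), Itga6 and Itgav (Fam134bKO stages), Itgb5 and Itga11 (myoblasts) and Itga6 (myotubes), with adjusted p of 0.0535 to 0.212. In that myoblast comparison the count was 5 with sample weights, 1 at an adjusted p under 0.01 and 1 to 4 when single samples were left out, the lowest without WT myoblasts replicate 4 or Fam134bKO myoblasts replicate 2. The interaction count of 0 became 1 with sample weights and was 0 to 1 when single samples were left out. The causes of these shifts were not tested. Itga4 was not tested at a minimum count of 50.

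None of the log2 differences whose sign turned had been called, and the largest was the 0.52 of Itga5 in Fam134bKO stages. The turned values were 0.0016 for Itga3 in Fam134bKO stages with a pseudocount of 5, -0.20 for Itga5 there with sample weights, and for Itgav 0.026 between myoblasts with sample weights, and -0.013 with quantile normalization, -0.15 with sample weights and -0.14 without both shallow samples between myotubes. The interaction turned to -0.0065 for Itga3 and -0.18 for Itgav with sample weights and to -0.033 for Itgav without both shallow samples. When single samples were left out, Itga3 ranged from -0.34 to 0.081 in WT stages, from -0.22 to 0.25 in Fam134bKO stages, from -0.43 to 0.045 between myotubes and from -0.083 to 0.40 in the interaction. Itgav ranged from -0.32 to 0.11 between myoblasts, from -0.14 to 0.19 between myotubes and from -0.080 to 0.35 in the interaction. In Fam134bKO stages Itga5 ranged from -0.10 to 0.88 and Itgb3 from -0.67 to 0.27, and between myoblasts Itga5 ranged from -0.20 to 0.78 and Itgb1 from -0.20 to 0.15.

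Among all genes, the WT stage comparison called 2474 genes, 1596 with no filter, 4683 with sample weights and 1564 without WT myotubes replicate 1. Of the called genes 60.1% were higher, and 49.7% with quantile normalization, where 7 integrins were still higher. The myoblast comparison called 1697 genes, 2656 with its 8 samples alone and 3773 with sample weights, and the myotube comparison called 2521 and 1565 with its 8 samples alone. The interaction called 371, 244 with no filter, 1221 with sample weights, and 231 to 245 without WT myoblasts replicate 2, WT myotubes replicate 3 or Fam134bKO myoblasts replicate 1 or 4. At an adjusted p under 0.01 the 5 counts were 1269, 2216, 1041, 1349 and 141.

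Same-numbered samples of different groups showed little shared shift: their deviations correlated by 0.033 on average (-0.22 to 0.37 over 24 combinations), and those of differently numbered samples by -0.011. The labels do not say whether same-numbered samples were handled together, and this check cannot decide it. With the replicate number as a block, the counts were 7, 6, 3, 3 and 0 integrins, as without it, and 0 of the 50 single calls changed.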
